A study of Rattus norvegicus with 32 samples.

Results

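The 9 genes described here encode the microtubule-associated protein tau (Mapt), the amyloid precursor protein (App) and its homologues (Aplp1 and Aplp2), 4 kinases that phosphorylate tau (Mark1, Mark3, Gsk3b and Cdk5) and β-secretase (Bace1). They were chosen by gene symbol, and 12 of the 33849 probes on the array carry one of these symbols. Of the 12 probes, 9 passed the filter on dim probes, and these measure 8 of the 9 genes, among 8260 named genes with a probe that passed. Tau binds to axonal microtubules and stabilizes them, and its release from the microtubule follows phosphorylation by kinases such as MARK, GSK-3β and CDK5. App and its homologues are membrane proteins that secretases cut, and the cut by β-secretase followed by γ-secretase releases the amyloid β peptide from App but not from the homologues. Axonal accumulation of amyloid precursor protein and phosphorylation of tau are known features of brain injury.

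RNA came from surviving CA3 pyramidal neurons of the hippocampus of adult male Sprague-Dawley rats, collected by laser capture. In injured rats these lay next to dying neurons, and they were picked because Fluoro-Jade, a stain for degenerating neurons, had not labelled them. The 4 conditions were fluid percussion TBI plus metyrapone (TBI+MT, 100 mg/kg, an inhibitor of glucocorticoid synthesis), TBI plus carbenoxolone (TBI+CB, 30 mg/kg, an inhibitor of 11βHSD), TBI plus saline, and sham injury. The drugs were given before the injury, 90 min by the labels and a shorter time by the methods. The methods give the sham rats saline, whereas the labels call those of 4 h untreated and name no agent at 24 h. Each condition was sampled at 4 and 24 h, which the methods count from surgery. This makes 8 groups of 2 pooled samples, and each pooled sample holds the RNA of several rats. Each pooled sample was amplified and hybridized to duplicate CodeLink arrays, which were averaged, so that n = 2 per group. Levels are raw intensities in multiples of the array median, and folds compare the same probe between groups. With 2 pools in a group, p-values rest on the spread between pools over all 8 groups, and fewer cells of a type and less RNA per cell cannot be told apart.

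The pools differed in brightness. The share of probes above background was lowest at 27.4 and highest at 64.5% over the 16 pools, and the dimmest pools were 1 of the TBI+MT pools (27.4%) and 1 of the TBI+CB pools (30.1%) at 24 h. Duplicate arrays correlated with a median r of 0.975, against 0.873 for the 2 pools of a group. The slide numbers fall into 3 runs: both 24 h drug groups form the third, so at 24 h drug and slide run cannot be told apart, and 1 of the 4 h TBI pools lies with the 4 h sham pools and the other with the drug pools. Of 8 pyramidal neuron markers, Slc17a7, Camk2a and Grik4 had a probe that passed the filter, and Neurod6, Neurod2, Nrgn, Rbfox3 and Snap25 did not. Astrocyte markers (6 of 7 passed) and microglial markers (6 of 6 passed) were measured in every group, with 1 exception. The microglial marker Cd68 was near background on all arrays of sham at 24 h.

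The regulatory DNA of the members was read from RefSeq (GRCr8), which gives a promoter for 8 of the 9 genes and none for Mapt. The 250 bases before the gene start are shown for Mark3 and Mark1, whose levels moved together over the 16 pools, and for Gsk3b, whose level did not move with theirs. Capitals mark the GC box GGGCGG, read on either strand.

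Mark3, chr6:136448401-136448650, plus strand:
Mark3: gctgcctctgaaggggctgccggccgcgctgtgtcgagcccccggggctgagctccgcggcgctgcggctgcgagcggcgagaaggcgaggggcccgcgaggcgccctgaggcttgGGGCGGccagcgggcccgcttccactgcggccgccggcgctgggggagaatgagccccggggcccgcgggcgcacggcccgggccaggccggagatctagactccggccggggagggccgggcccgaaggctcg
Mark1, chr13:99086702-99086951, minus strand:
Mark1: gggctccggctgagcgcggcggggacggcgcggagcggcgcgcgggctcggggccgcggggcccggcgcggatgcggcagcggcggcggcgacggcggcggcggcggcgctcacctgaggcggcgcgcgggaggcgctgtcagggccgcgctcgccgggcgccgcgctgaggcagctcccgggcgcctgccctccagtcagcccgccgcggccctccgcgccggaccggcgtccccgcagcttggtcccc
Gsk3b, chr11:76153250-76153499, minus strand:
Gsk3b: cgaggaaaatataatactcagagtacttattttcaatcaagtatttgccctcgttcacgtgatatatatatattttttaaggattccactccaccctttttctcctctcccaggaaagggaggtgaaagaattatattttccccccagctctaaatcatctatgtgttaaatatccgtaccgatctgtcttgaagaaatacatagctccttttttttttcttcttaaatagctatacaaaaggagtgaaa

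The windows of Mark1 and Mark3 are rich in G and C (86.0 and 80.4%), and that of Gsk3b holds 34.4%. Those of App and Aplp1 hold 73.6% each, that of Aplp2 64.8%, that of Cdk5 63.6% and that of Bace1 52.0%. The median over 33469 promoters was 51.2%. A link between these shares and the levels was not tested. A GC box was found in 5 of the 8 windows (App, Aplp1, Aplp2, Mark3 and Cdk5) and in 30.5% of all promoters. The TATA box TATAAA and the CRE TGACGTCA, both also read on either strand, were found in none of the 8, and in 12.9% and 1.6% of all promoters. These are matches of letters in a window and say nothing about binding in these neurons.

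Tau mRNA was measured in every pool. Mapt was above background on 32 of 32 arrays, and over the 16 pools its lowest level was 3.32, its median 22.8 and its highest 67.2. At 4 h Mapt stood at 13.3 and 58.3 in TBI+MT pools, at 18.2 and 26.7 in TBI+CB pools, at 67.2 and 30.8 in TBI pools and at 21.5 and 25.2 in sham pools. Both TBI pools were above both sham pools and both TBI+CB pools, whereas the TBI+MT pools spread over the whole range. The 24 h levels were 3.32 and 24.0 in TBI+MT, 47.4 and 6.21 in TBI+CB, 9.43 and 11.4 in TBI and 25.5 and 6.42 in sham pools, and all groups overlapped. The 2 pools lay far apart in the TBI+MT, TBI+CB and sham groups at 24 h and close together in the TBI group. By the mean of log2 levels the order of the groups ran from TBI+MT at 24 h (3.16) to TBI at 4 h (5.51), and no step between neighbours in this order was larger than the SD between pools of a group (1.30).

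The MARK kinases phosphorylate tau within its microtubule-binding repeats. Mark3 was above background on every array, with levels of 12.5 and 29.2 in TBI+MT, 24.0 and 28.3 in TBI+CB, 36.2 and 59.2 in TBI and 25.8 and 21.9 in sham pools at 4 h. The 4 h TBI pools were the highest of all 8 pools at that time. At 24 h Mark3 stood at 3.73 and 31.7 in TBI+MT, 38.9 and 8.56 in TBI+CB, 10.9 and 11.7 in TBI and 18.8 and 7.996 in sham pools. Mark1 was also highest in both TBI pools at 4 h, with 1.72 and 8.56 in TBI+MT, 5.79 and 8.49 in TBI+CB, 12.4 and 14.2 in TBI and 5.24 and 6.88 in sham pools. Its 24 h levels were 0.928 and 9.75 in TBI+MT, 8.35 and 1.08 in TBI+CB, 2.82 and 3.17 in TBI and 4.20 and 2.32 in sham pools. Both low values were near background on both arrays, and for each kinase the low pools of the drug groups were the dimmest pools of the series.

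Gsk3b, a kinase that phosphorylates tau at many sites and glycogen synthase in metabolism, varied in another way. At 4 h it stood at 3.95 and 3.99 in TBI+MT, 0.606 and 2.92 in TBI+CB, 5.62 and 1.56 in TBI and 5.16 and 3.49 in sham pools, and the lowest value was near background on both arrays. The range at 24 h was narrower, with 2.40 and 4.56 in TBI+MT, 4.77 and 2.07 in TBI+CB, 3.21 and 4.61 in TBI and 4.98 and 4.74 in sham pools. Its group means ran from TBI+CB at 4 h (0.41 on the log2 scale) to sham at 24 h (2.28), and only the first step, of 1.16 to TBI at 4 h, was larger than the SD between pools (0.85).

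Cdk5, a neuronal kinase of tau that needs the activator p35, had the smallest spread of the kinases. Its levels at 4 h were 21.1 and 22.6 in TBI+MT, 27.0 and 26.4 in TBI+CB, 34.2 and 35.9 in TBI and 29.2 and 35.7 in sham pools. Both TBI+MT pools were the lowest at that time, followed by both TBI+CB pools. At 24 h Cdk5 stood at 14.5 and 24.7 in TBI+MT, 35.8 and 15.4 in TBI+CB, 28.1 and 46.4 in TBI and 31.6 and 28.2 in sham pools. Both TBI+MT pools lay below both TBI pools at each time.

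App was bright on all arrays. At 4 h its levels were 137 and 215 in TBI+MT, 257 and 253 in TBI+CB, 299 and 437 in TBI and 266 and 237 in sham pools, so both TBI pools were above the pools of the other 3 groups. At 24 h App stood at 27.1 and 281 in TBI+MT, 289 and 108 in TBI+CB, 112 and 133 in TBI and 245 and 86.4 in sham pools, and all groups overlapped. The second App probe was near background on all 32 arrays and gave no level. The steps between neighbouring groups were at most 0.51 on the log2 scale, against an SD between pools of 1.02.

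**Figure D1:**
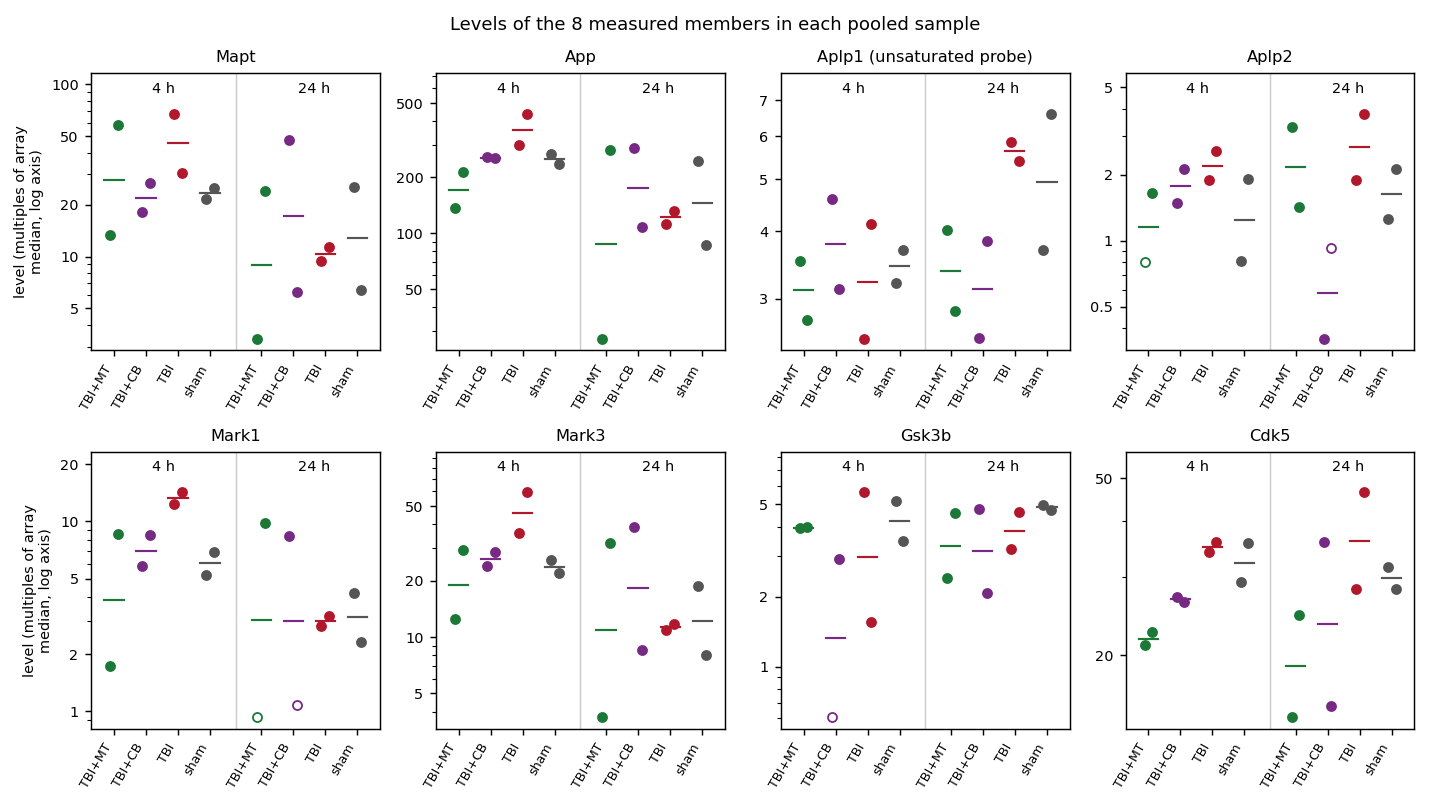
Level of each of the 8 measured genes in every pooled sample (multiples of the array median, log axis), by group and time. Each point is 1 pool, open points were near background on both arrays, and each line is the group mean on the log scale; at 4 h the TBI pools of Mark1 lie at 12.4 and 14.2, above all other pools, and at 24 h the pools of each drug group lie far apart for Mapt, App, Mark1 and Mark3.

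The probes of the App homologues were saturated on many arrays or dimmer than that of App. Aplp1 has 2 probes that passed the filter, and the brighter was saturated on 23 of 32 arrays, including all 4 arrays of the TBI+MT and sham groups at 4 h and of the TBI and sham groups at 24 h. Its saturated spots had raw intensities between 24115 and 31604, and over the 32 arrays its level in multiples of the median correlated at r = -0.83 with the array median. Its fitted values are not read as sizes of effect, and where a count includes it, the other probe is given too. The other Aplp1 probe was never saturated and lay between 2.53 and 6.60. On that probe Aplp1 stood at 3.53 and 2.75 in TBI+MT, 4.60 and 3.13 in TBI+CB, 2.53 and 4.12 in TBI and 3.22 and 3.70 in sham pools at 4 h. After 24 h they were 4.02 and 2.85 in TBI+MT, 2.54 and 3.84 in TBI+CB, 5.85 and 5.42 in TBI and 3.69 and 6.60 in sham pools. Both TBI pools at 24 h were thus above all 4 drug pools.

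Aplp2 was dim and was near background on 9 of 32 arrays. It passed the filter only through 2 groups, TBI at 4 h and TBI+MT at 24 h. Its fold changes with either group on 1 side are thus not independent of the filter. At 4 h it stood at 0.8003 and 1.66 in TBI+MT, 1.49 and 2.13 in TBI+CB, 1.90 and 2.55 in TBI and 0.811 and 1.90 in sham pools. Its 24 h levels were 3.31 and 1.43 in TBI+MT, 0.357 and 0.930 in TBI+CB, 1.89 and 3.77 in TBI and 1.26 and 2.13 in sham pools. The TBI+CB pools at 24 h were below the pools of the other 3 groups, and 3 of their 4 arrays were near background. In the order of the groups only the step from TBI+CB at 24 h to the next group (1.00) was larger than the SD between pools (0.71).

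Bace1, which makes the first cut in amyloid β release, has a single probe, and it was near background on all 32 arrays, with ratios to the array median from -0.057 to 1.04. No level or fold is given for it, and the planned comparison of secretase with substrates could not be made from it. That the probe was dim does not show that the mRNA was absent.

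The question for the injury was whether TBI moved these transcripts in surviving neurons. At 4 h Mark1 (log2 fold change 1.14, SE 1.13), Mark3 (0.96, SE 0.95) and Aplp2 (0.82, SE 0.70) were larger in TBI than in sham neurons by more than their standard error, and Mapt (0.97, SE 1.13) and App (0.52, SE 0.92) were not. Gsk3b (-0.52, SE 0.80) and Cdk5 (0.12, SE 0.51) were within their standard errors too. Aplp2 had passed the filter through this TBI group and not through sham, so its value is not independent of the filter. In the limma fit 0 of the 8 genes were called, as were 0% of the 17613 probes tested, and 0 of the 8 had an unadjusted p under 0.05, against 3.34% of all probes. The pools of TBI lay above those of sham for 4 of the 8 genes (Mapt, App, Mark1 and Mark3), against 36.4% of all probes, and below for 1 (Aplp1, on its saturated probe; on the other probe the pools overlapped), against 7.58%. Over 2-fold higher was 1 of 8, Mark1, against 15.9% of all probes, and 0 were over 2-fold lower, against 7.35%. The median log2 fold change was 0.67 over the 8 genes and 0.33 over all probes. With quantile normalization, which brings the median of all probes to 0.03, the median of the 8 genes was 0.40. Within the first slide run, where 1 TBI pool can be set against both sham pools, the difference was 1.53 for Mapt, 1.05 for Mark1, 0.60 for Mark3, 0.25 for App, 0.61 for Aplp2, 0.08 for Cdk5 and 0.41 for Gsk3b, whose value thus turned in sign. Under the other scalings Mark1 was as low as 0.70, Mark3 0.45 and Aplp2 0.46. The summed level of the astrocyte markers was 225 to 505 in TBI and 143 to 255 in sham pools, and that of the microglial markers was 36.2 to 50.4 in TBI and 48.7 to 140 in sham pools. Their part in these values was not tested.

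At 24 h the injury comparison held no gene larger than its standard error except Aplp2 (0.71, SE 0.70). The values were -0.31 (95% interval -2.78 to 2.17) for Mapt, -0.25 (-2.26 to 1.75) for App, -0.06 (-2.53 to 2.40) for Mark1 and 0.27 (-0.85 to 1.40) for Cdk5. The intervals of Mapt, App and Mark1 hold changes of over 2-fold in either direction, and that of Cdk5 holds an increase but no decrease of that size. By limma 0 of 8 were called (0% of all probes), and 0 of 8 had an unadjusted p under 0.05 (1.84% of all probes). The pools of TBI were below those of sham for 1 gene, Gsk3b (11.4% of all probes), and above for 0 (13.1%). None was over 2-fold higher (4.09% of all probes) or lower (6.71%). The median over the 8 genes was -0.09, against 0.01 over all probes. The microglial markers summed to 126 to 144 in TBI and 33.8 to 65.3 in sham pools at 24 h, the endothelial and pericyte markers to 57.2 to 72.2 in TBI and 49.2 to 52.3 in sham pools, and the 3 pyramidal markers to 169 to 258 in TBI and 277 to 286 in sham pools. Their part in the values of the 8 genes was not tested. The difference between the injury effects at 24 and 4 h was -1.27 (SE 1.60) for Mapt and -1.21 (SE 1.60) for Mark1, with 0 of 8 called by limma (0% of probes) and 0 of 8 with an unadjusted p under 0.05 (2.35%).

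Metyrapone was then set against TBI alone. At 4 h the fold change was negative and larger than its standard error for Mark1 (-1.79, SE 1.13), Mark3 (-1.28, SE 0.95), App (-1.07, SE 0.92), Aplp2 (-0.93, SE 0.70) and Cdk5 (-0.68, SE 0.51), and the TBI+MT pools of these 5 genes all lay below the TBI pools. The share of all probes with such pools was 33.6%, and 8.14% lay above, against 0 of the 8 genes. Over 2-fold lower were 3 of 8 (Mark1, Mark3 and App), against 25.1% of all probes, and 0 were over 2-fold higher, against 8.21%. Mapt (-0.71, SE 1.13) and Gsk3b (0.42, SE 0.80) overlapped. Here too Aplp2 had passed the filter through the TBI group and not through TBI+MT. By limma 0 of the 8 were called (0% of all probes), with an adjusted p of 0.736 for each of the 5 genes, and 0 had an unadjusted p under 0.05 (4.73% of all probes). The median was -0.82 over the 8 genes and -0.40 over all probes, and -0.31 and -0.01 with quantile normalization. In the second slide run alone, with 1 TBI pool, the differences were -1.89 for Mark1, -1.63 for Mark3, -1.35 for App, -1.15 for Aplp2 and -0.72 for Cdk5, and there Mapt was -0.15 and Gsk3b 1.35. Under the other scalings the smallest values were -1.35 for Mark1, -0.62 for Mark3, -0.56 for App, -0.50 for Aplp2 and -0.03 for Cdk5. Interneuron markers (5 of 7 passed) summed to 77.5 to 80.0 in TBI+MT and 76.95 to 123 in TBI pools at 4 h and overlapped. Marker sums of the other 5 cell classes were lower in TBI+MT than in TBI pools without overlap. They were 247 to 264 in TBI+MT and 269 to 306 in TBI for the 3 pyramidal markers, 100 to 179 in TBI+MT and 225 to 505 in TBI for astrocytes, 26.7 to 31.9 in TBI+MT and 36.2 to 50.4 in TBI for microglia, 94.1 to 105 in TBI+MT and 131 to 176 in TBI for oligodendrocytes (4 of 6 markers passed), and 22.2 to 22.9 in TBI+MT and 43.6 to 47.7 in TBI for endothelium and pericytes (6 of 8). Their part in the values of the 8 genes was not tested.

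Carbenoxolone at 4 h was set against the same TBI pools. The TBI+CB pools lay below the TBI pools for Mapt (-1.05, SE 1.13), Mark1 (-0.92, SE 1.13), Mark3 (-0.83, SE 0.95), App (-0.50, SE 0.92) and Cdk5 (-0.39, SE 0.51), 5 of 8 genes against 34.6% of all probes, and above for 1 gene, Aplp1 on its saturated probe (its other probe overlapped), against 7.41%. All 5 values were smaller than their standard errors. For Gsk3b the value was -1.16 (SE 0.80), with overlapping pools. Over 2-fold lower were 2 of 8 genes (Mapt and Gsk3b), against 15.9% of all probes, and 0 were over 2-fold higher, against 4.55%. In the second slide run alone Mapt was -0.48 and Gsk3b -0.23, while Mark1 was -1.02, Mark3 -1.18, App -0.78, Aplp2 -0.52 and Cdk5 -0.43. Under the other scalings the smallest value of Gsk3b was -0.60. The limma fit called 0 of 8 (0% of all probes), and 0 of 8 had an unadjusted p under 0.05 (3.44%). The median was -0.67 over the 8 genes and -0.28 over all probes. Astrocyte markers summed to 208 to 220 in TBI+CB and 225 to 505 in TBI pools, and endothelial and pericyte markers to 28.1 to 34.8 in TBI+CB and 43.6 to 47.7 in TBI pools. Their part was not tested. Metyrapone set directly against carbenoxolone at 4 h gave 1.58 (SE 0.80) for Gsk3b, with both TBI+MT pools above both TBI+CB pools (1 of 8 genes, 11.8% of all probes), and App and Cdk5 lay below (2 of 8, 19.2%). Over 2-fold higher was 1 of 8, Gsk3b (8.25% of all probes), and 0 were over 2-fold lower (5.32%). None of the 8 was called by limma (0% of probes) or had an unadjusted p under 0.05 (3.11%).

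**Figure D2:**
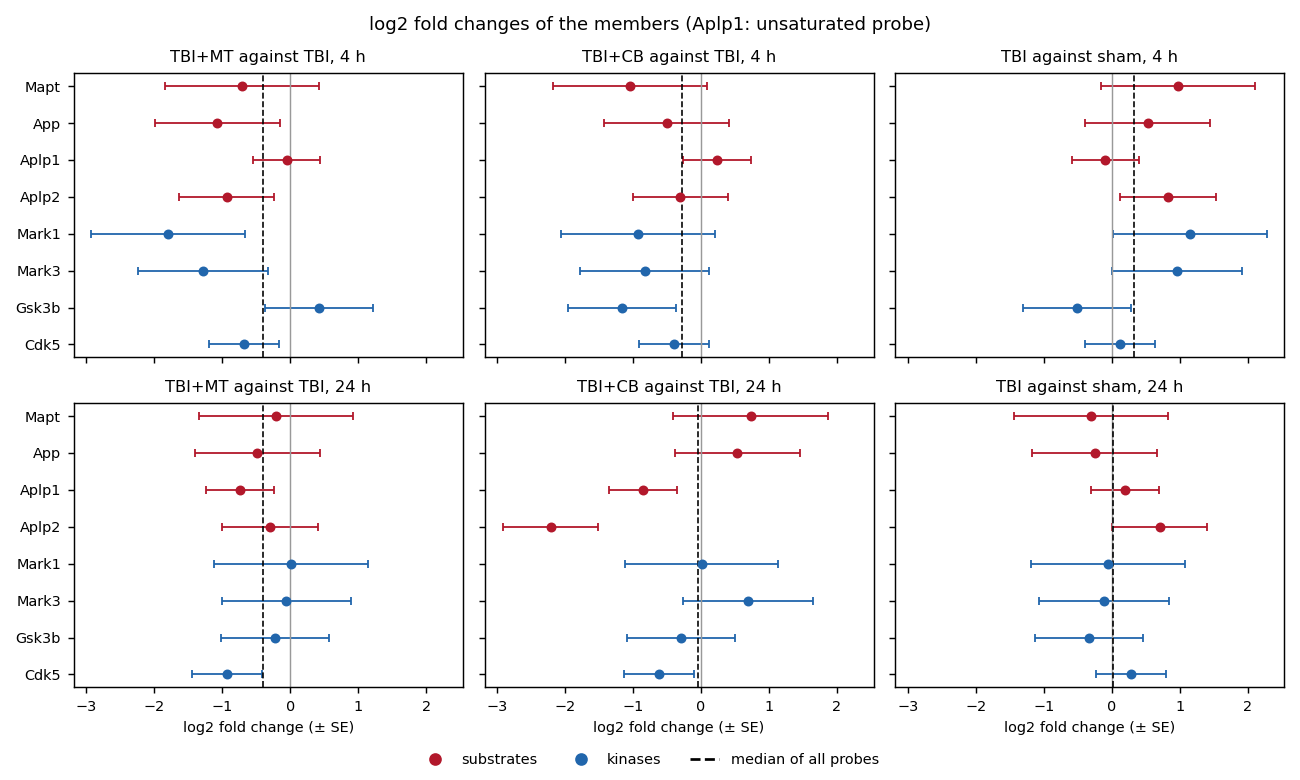
Fitted log2 fold change with its standard error for each gene (Aplp1 by its unsaturated probe) in the drug and injury comparisons at 4 and 24 h, with the median of all probes as a dashed line. At 4 h Mark1 lies at -1.79 for TBI+MT against TBI and at 1.14 for TBI against sham, and at 24 h Aplp2 lies at -2.21 for TBI+CB against TBI.

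The comparisons of each drug with TBI at 24 h include 1 of the dim pools, and that between the drugs includes both. Cdk5 was lower in both TBI+MT pools than in both TBI pools (-0.93, SE 0.51, adjusted p = 0.916 by limma), 1 of 8 genes below against 28.6% of all probes and 0 above against 5.69%. So was Aplp1 on its unsaturated probe (-0.73, SE 0.50, adjusted p = 0.921), whereas its saturated probe overlapped. None of the 8 was over 2-fold higher (5.50% of all probes) or lower (13.8%). Endothelial and pericyte markers summed to 33.9 to 42.5 in TBI+MT and 57.2 to 72.2 in TBI pools, and oligodendrocyte markers to 86.5 to 90.5 in TBI+MT and 96.5 to 116 in TBI pools, and their part was not tested. The other values were -0.21 for Mapt, -0.48 for App, 0.01 for Mark1 and -0.06 for Mark3, each with a standard error between 0.92 and 1.13. Leaving out the dim TBI+MT and TBI+CB pools, an alternative added after the data had been seen, left 1 pool in each drug group. The same 4 values were then 1.21, 1.21, 1.71 and 1.49, and Cdk5 was -0.55. By limma 0 of 8 were called (0% of all probes) and 0 had an unadjusted p under 0.05 (5.51%).

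For TBI+CB against TBI at 24 h the lowest value was that of Aplp2, at -2.21 (SE 0.70, 95% interval -3.74 to -0.69), with an unadjusted p of 0.00826 and an adjusted p of 0.592 in the limma fit, so it did not pass the test. It was the single gene of the 8 with an unadjusted p under 0.05, against 8.22% of all probes, and 0 of 8 were called (0%). The value rests on little signal: the 4 TBI+CB arrays read 1.28, -0.017, 1.11 and 0.781 times the median, and the second was set to the floor of 0.1. The fold change was -3.04 with a floor of 0.01, -1.63 with a floor of 0.5 and -1.20 on the first array of each pool alone. Aplp1 on its unsaturated probe was -0.85 (SE 0.50, adjusted p = 0.608), and both homologues lay below TBI in both pools, 2 of 8 genes against 27.4% of all probes, with 0 above against 15.9%. Over 2-fold lower were 2 of 8 (Aplp2, and Aplp1 on its saturated probe but not on the other), against 15.2% of all probes, and 0 were over 2-fold higher, against 14.3%. Cdk5 was -0.62 (SE 0.51), with overlapping pools. Mapt (0.73, SE 1.13), App (0.53, SE 0.92) and Mark3 (0.69, SE 0.95) were within their errors. Without both dim pools, which left 1 TBI+CB pool, Mapt, App and Mark3 were 2.19, 1.24 and 1.78, and Cdk5 was -0.01. Metyrapone set against carbenoxolone at 24 h gave 1.91 (SE 0.70, unadjusted p 0.0181, adjusted p = 0.786 by limma) for Aplp2. It was 0.62 (SE 0.63) on the first array of each pool alone and 3.21 on the second alone, which includes the array set to the floor. Aplp2 had passed the filter through this TBI+MT group and not through TBI+CB. Pools lay above for 2 of 8 genes (Aplp1 on its saturated probe, and Aplp2), against 8.50% of all probes, and below for 0, against 10.3%. The same 2 genes were over 2-fold higher (7.25% of all probes), although Aplp1 on its unsaturated probe was 0.12 with overlapping pools, and 1 of 8, App (-1.01, SE 0.92), was over 2-fold lower (22.4%). Without the dim TBI+MT pool App was 0.67, and without both dim pools, which left 1 pool in each drug group, it was -0.04. Among the 8, 1 had an unadjusted p under 0.05 (5.07% of all probes) and 0 were called (0%).

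The differences between the drug effects at 24 and 4 h were not called for any of the 8 genes by limma (0% of all probes for each drug). For metyrapone 0 of 8 had an unadjusted p under 0.05 (4.67% of all probes), and for carbenoxolone 1 of 8 did (7.75%), the saturated probe of Aplp1. The difference for carbenoxolone was 1.77 (SE 1.60) for Mapt, 1.52 (SE 1.35) for Mark3 and -1.90 (SE 0.99) for Aplp2.

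Substrates were set against kinases within each pool, as the mean log2 level of Mapt, App, Aplp1 and Aplp2 minus that of Mark1, Mark3, Gsk3b and Cdk5. The value has no meaning as a level, since it mixes probes, and it includes the saturated probe of Aplp1. TBI+MT minus TBI was 0.17 at 4 h and 0.04 at 24 h, TBI+CB minus TBI was 0.59 at 4 h and -0.46 at 24 h, and TBI minus sham was -0.004 at 4 h and 0.13 at 24 h. The SD between pools of a group was 0.48, so the difference for carbenoxolone at 4 h alone was larger than it, with 3.09 and 2.44 in TBI+CB and 1.97 and 2.37 in TBI pools. With the unsaturated Aplp1 probe this difference was 0.42, below the SD of 0.45. At 24 h the TBI+CB pools stood at 1.48 and 2.72 and the TBI+MT pools at 3.17 and 2.03, and in each group the higher value belonged to the dim pool. Thus no shift of substrates relative to kinases stood out from the spread between pools with both Aplp1 probes.

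**Figure D3:**
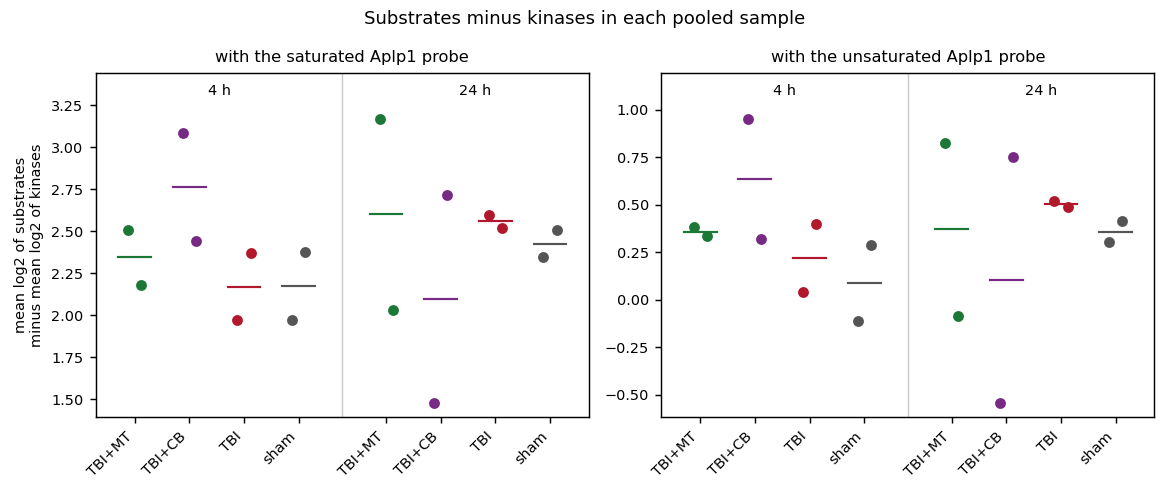
Mean log2 level of the 4 substrates minus that of the 4 kinases in each pooled sample, by group and time, with the saturated Aplp1 probe and with the unsaturated one. Each point is 1 pool and each line is the group mean; the TBI+CB pools lie at 3.09 and 2.44 at 4 h, and at 1.48 and 2.72 at 24 h.

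Several of the genes moved together from pool to pool. Over the 16 pools App and Mark3 correlated at r = 0.96, Mark1 and Mark3 at 0.95, Mapt and Mark3 at 0.91 and Mapt and App at 0.87. Among 8204 genes Mark3 ranked 252 by its correlation with App and 32 by that with Mark1. By correlation with Mapt, Mark3 ranked 559 and App 1411, so many genes outside the list followed Mapt and App as closely. Gsk3b correlated at 0.22 with Mapt, 0.01 with App and 0.01 with Mark3, and Aplp2 at -0.30 with Mapt and -0.32 with App. Correlations are a description over pools that share groups, slides and brightness, and the log2 level of Mapt followed the share of probes above background in its pool with r = 0.95 (Spearman's rho 0.91), a value reached by 0.0514% of all probes, whose median was 0.44. Without the 2 pools farthest from the median share it was 0.92, and in 7 of 8 groups the brighter pool had more Mapt. The same correlation was 0.80 for Mark1, 0.79 for Mark3, 0.74 for App, 0.56 for Cdk5, 0.41 for Gsk3b, -0.27 for Aplp2 and -0.64 for the unsaturated Aplp1 probe, for which the brighter pool was the lower one in every group. The brighter pool was the higher one in 8 of 8 groups for Gsk3b and in 7 for Mark3. It was so in 6 for Mark1, 6 for App, 5 for Cdk5 and 3 for Aplp2. At 4 h the share above background was 45.4 and 64.5% in TBI+MT, 41.7 and 50.6% in TBI+CB, 61.4 and 48.3% in TBI and 52.3 and 50.3% in sham pools, and the part of brightness in the group differences was not tested.

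**Figure D4:**
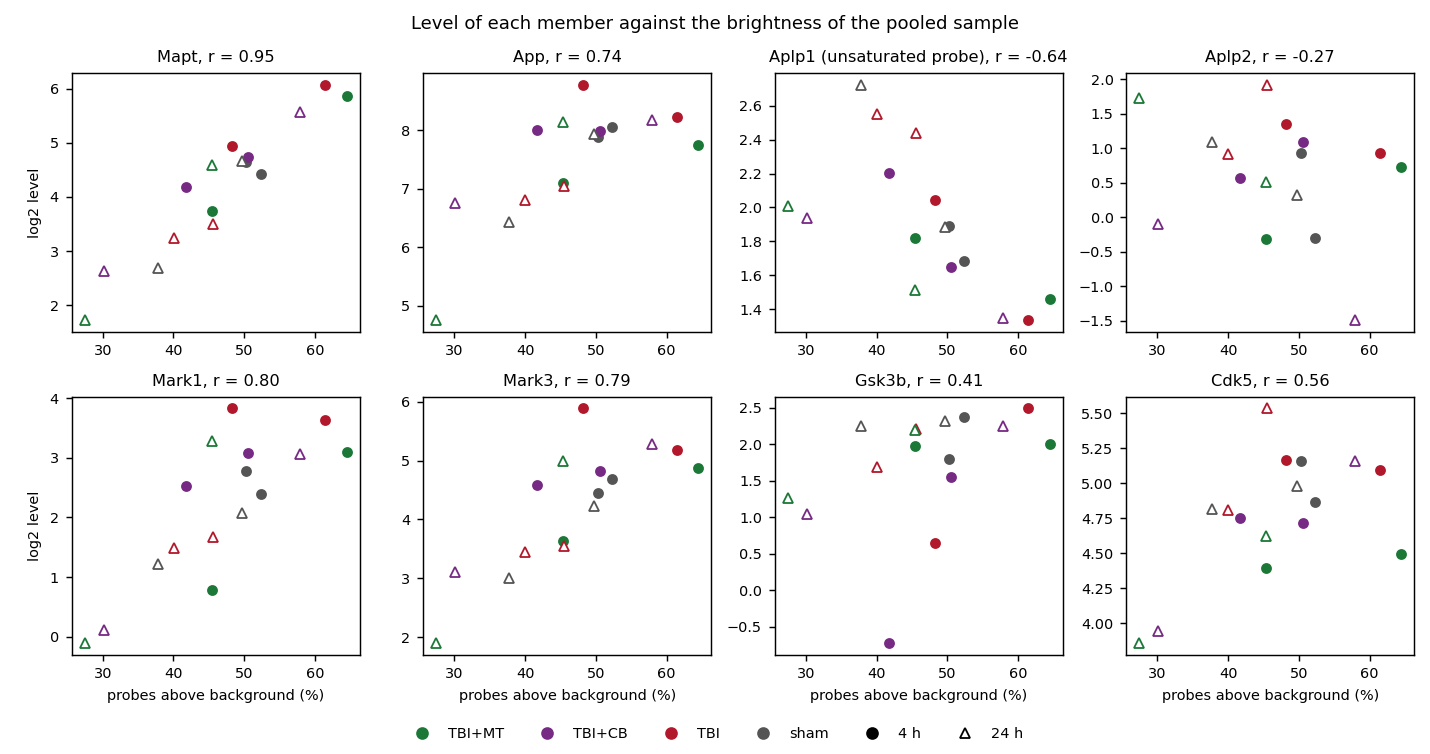
log2 level of each gene against the share of probes above background (%) in the same pool, with 1 point per pool, colours for the conditions, circles for 4 h and triangles for 24 h. Mapt lies along a line (r = 0.95), Aplp1 on its unsaturated probe declines (r = -0.64), and Aplp2 shows little relation (r = -0.27).

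The genes whose pattern over the 16 pools was most like that of Mapt, among 8198 named genes, were Pcnx4 (r = 0.98), Necap1 (0.98), which takes part in clathrin-mediated endocytosis, and Psap (0.98), which encodes prosaposin. For App they were Pcyox1, Snn and Dynlt3, a dynein light chain (each 0.99). For Gsk3b the values were lower, with Dscam, an adhesion molecule of developing neurons, at 0.89, Desi2 at 0.86 and Dab1, the adaptor of reelin signaling, at 0.84.

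Of 70 other genes of tau and amyloid biology, 56 had a probe and 42 had one that passed the filter. These were 5 of 10 secretase genes, 8 of 18 tau kinases and kinase activators, 7 of 9 phosphatases and isomerases of tau, 4 of 8 microtubule partners, 8 of 13 adaptors and sorting proteins of App, 7 of 9 genes of amyloid β clearance and 3 of 3 calpain genes. By limma none of the 42 was called in any of the 11 comparisons (0% of all probes), and only 1 had an unadjusted p under 0.05 in 1 of them, in which 1.84% of all probes did. This was Ece1, an endothelin-converting enzyme that also degrades amyloid β, with 45.7 and 25.3 in TBI and 13.3 and 11.5 in sham pools at 24 h (log2 fold change 1.46, SE 0.64, unadjusted p 0.0402, adjusted p = 1 by limma). Both TBI pools were above both sham pools, as for 13.1% of all probes.

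In the 4 h injury comparison the median over the 42 genes was 0.26, beside 0.33 over all probes. With metyrapone set against TBI it was -0.51, beside -0.40, and with carbenoxolone -0.31, beside -0.28. Among the groups at 4 h, the phosphatases had medians of 0.57, -0.89 and -0.39, the secretases -0.03, -0.18 and -0.04, and the tau kinases 0.31, -0.40 and -0.19 for the injury, metyrapone and carbenoxolone comparisons in turn. More than 2-fold below TBI in TBI+MT neurons at 4 h were 6 of the 42 genes, 3 of them phosphatases, against 25.1% of all probes, and 2 of the 42 were more than 2-fold above, against 8.21%. The 24 h medians over the 42 genes were -0.05 for the injury, -0.38 for metyrapone and -0.06 for carbenoxolone, beside 0.01, -0.39 and -0.04 over all probes. The same 3 groups of genes differed from this at 24 h. In the same order of comparisons the secretases had medians of 0.14, -0.77 and -0.74. The tau kinases had -0.06, -0.32 and -0.48, and the phosphatases 0.08, -0.41 and -0.01.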

How the data were processed

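Per the file headers, the authors' CodeLink software gave each spot a raw intensity, and the deposited normalized intensity divides it by the array median. Negative intensities occur, so local background was taken to have been subtracted. The authors' table of processed intensities, re-centred to a median of 1 with low values set to 0.01, was used as an alternative. The RNA had been amplified in 2 rounds.

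Levels are raw intensity over the array median with a floor of 0.1, on the log2 scale. Spots flagged irregular or masked were omitted before duplicate arrays were averaged. A probe was kept (17635) if at least 1 group had it above background on its 4 arrays. Names came from the platform annotation, with 16834 probes updated through RefSeq, and the kept probe with the highest mean stood for a gene. All 8 groups entered 1 limma fit (limma 3.58.1 in R 4.3.3), with 8 residual and 3.88 prior degrees of freedom, Benjamini-Hochberg adjustment over all probes within each of 11 comparisons, and a threshold of 0.05. The code was tested on simulated data. Named are the 9 genes, up to 4 genes of the 70-gene list per comparison with an unadjusted p under 0.05, and the 3 genes most like Mapt, App and Gsk3b (Bace1 had no level). A value was called higher or lower from the fit only where it exceeded its standard error. The members and lists were chosen with earlier results of these data known. Alternatives were other scalings, floors, filters, arrays, blocks and probes, and each pool left out. Protein sequences were not used here. The labels put treatment 90 min before injury, and the methods give a shorter time. Slide runs were read from slide numbers, and no source calls them batches.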

Additional observations from a re-analysis of the deposited data

Results flagged for a closer look

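On the brighter probe of Aplp1 the pools of TBI+CB and TBI lay on opposite sides at the 2 times. Both TBI+CB pools were above both TBI pools at 4 h (1703 and 1116 in TBI+CB, 534.6 and 974.8 in TBI) and below them at 24 h (687 and 888 in TBI+CB, 1856 and 1516 in TBI). The probe was saturated on 1 of 4 TBI+CB and 2 of 4 TBI arrays at 4 h, and on 2 of 4 TBI+CB and all 4 TBI arrays at 24 h. The fitted difference between the effects of -2.04 on the log2 scale (SE 0.93, adjusted p = 0.574 by limma) did not pass the test and, with saturated spots on both sides, is not a measured size. On the unsaturated Aplp1 probe the difference was -1.08 (SE 0.70, adjusted p = 0.574), with overlapping pools at 4 h, so a change of direction is not shown.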

How the results depend on the processing

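None of the 8 genes was called by limma in any of the 11 comparisons under any of 32 planned and 2 added alternatives that could be fitted (fewer than 8 genes remain where a probe must be above background on all 32 arrays), 16 of them the omission of 1 pool. The replicate numbers did not pair the samples, since 8 of 12 correlations of deviations were at or below 0.1 (-0.57 to 0.38), and with a replicate block 0 of 8 genes and 0 probes were called in each comparison. The slide run block could not be fitted for either drug against TBI at 24 h. Over all probes up to 49 were called, for TBI+MT against TBI at 4 h with a slide run block or without TBI 4 h replicate 1, and 47 for TBI against sham without that pool. All 20 of the 64 fold changes within a time that were larger than their standard error kept their sign under the 3 other scalings. The authors' processed values, 1 of the 3, are also scaled to the array median, so their agreement adds little. The 20 include the saturated Aplp1 probe at both times, in TBI+CB against TBI and in TBI+MT against TBI+CB. On the unsaturated probe these values were 0.23 and -0.29 at 4 h, and -0.85 and 0.12 at 24 h. Of these only -0.85 was larger than its SE (0.50). However, 10 of the 20 moved by over 1.5 times under at least 1 scaling, and Cdk5 in TBI+MT against TBI at 4 h was -0.03 at its smallest, against -0.68 as reported. Substrates minus kinases moved by more than the SD between pools with both dimmest 24 h pools left out, to -0.53 for metyrapone and -1.08 for carbenoxolone, each set against TBI at 24 h. With 1 pool left out in turn these ranged from -0.53 to 0.61 and from -1.08 to 0.16. App in TBI+MT against TBI+CB at 24 h turned to 0.67 without TBI+MT 24 h replicate 1 (range -2.70 to 0.67). It was -0.04 with both dimmest 24 h pools left out, and the cause was not tested. Gsk3b at 4 h was 0.41 for TBI against sham and 1.35 for TBI+MT against TBI with the slide run block, against -0.52 and 0.42 without it. The lowest adjusted p of any of the 8 genes in any alternative was 0.0958, for App in TBI+MT against TBI+CB at 24 h without TBI+MT 24 h replicate 2. Saturation of the brighter Aplp1 probe and signals near background (Bace1 throughout, Aplp2 on 9 arrays) limit what these arrays can show, as does the number of pools.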
